A study of Homo sapiens with 9 samples.

Results

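The response of HEK293T cells to HBC530 was described from the 3 libraries treated with 10 µM HBC530 for 5 h and the 3 libraries treated with vehicle (DMSO) for the same time, out of 9 libraries in the series. HEK293T is an established human embryonic kidney line, and no aptamer plasmid is named for the sequenced cells. HBC530 is the fluorogenic ligand of the Pepper RNA aptamer and binds it without a covalent bond, and the remaining 3 libraries received 10 µM MsOc3HBC, a derivative with a reactive mesylate handle, for 5 h. The profiles were recorded to ask whether the ligands alter endogenous transcripts. Of the 57500 genes in the count files, 17382 were tested because their raw counts averaged over 10 across the 6 libraries, among them 13583 protein-coding genes, and 40118 were below this limit. All libraries came from this 1 cell line, and in bulk RNA a smaller number of cells that express a gene and less RNA per cell cannot be told apart.

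HEK293T cells carry short-lived transcripts that answer to the cytoskeleton, to nutrients and to small molecules within hours. RHOB encodes a small GTPase that turns over rapidly and acts at endosomes and on actin, KLF2 and KLF6 encode Kruppel-like zinc finger factors, and CCN2 encodes a secreted matricellular protein controlled by YAP and TEAD. ATF3 and JUN encode bZIP factors, and CHAC1 encodes an enzyme that degrades glutathione and is a target of ATF4. BHLHE40 and BHLHE41 encode repressors of the circadian clock, and TIPARP and CYP1B1 are targets of the aryl hydrocarbon receptor, a ligand-activated transcription factor.

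The number of counts on genes ranged from 34963314 to 62205366 per library, and between 98.6 and 98.7% of them lay on protein-coding genes. Each of the 7 markers listed for HEK293T (among them LIN28B, IGF2BP1, KRT8, KRT18, NEFL and VIM) passed the count limit, whereas 0 of 8 markers of other cell types did. HBC530 replicate 3 stood apart from the other libraries. Along the first principal component, which held 49.7% of the variance, it lay at 46.7 and the other 5 libraries lay between -21.0 and -3.46. This library held relatively more counts on short genes and fewer on long genes. Its median log2 ratio to the DMSO mean was 0.26 in the fifth of genes with the shortest exonic length and -0.23 in the fifth with the longest, and in the other 5 libraries these medians lay between -0.04 and 0.06. For the genes and lists named here, values without HBC530 replicate 3 are therefore given where leaving it out ended or gave a call by DESeq2. They are also given where this changed the sign, or moved by over 1.5 times a value above 0.1 in size. MsOc3HBC replicate 3 showed the same trend, with medians of 0.21 for the shortest and -0.18 for the longest genes.

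**Figure D1:**
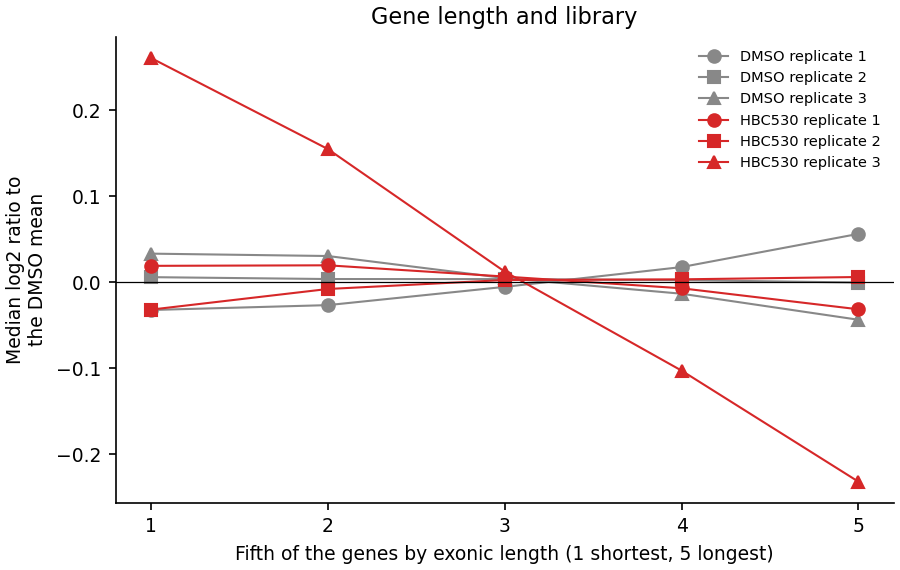
Median log2 ratio of each library to the mean of the 3 DMSO libraries (vertical axis) in quintiles of the genes by exonic length (horizontal axis, 1 shortest and 5 longest), with DMSO libraries in grey and HBC530 libraries in red. HBC530 replicate 3 runs from 0.26 to -0.23 while the other 5 libraries stay close to 0.

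HBC530 altered few transcripts. In the quasi-likelihood F test of edgeR, with p-values adjusted by Benjamini-Hochberg, 3 genes had an adjusted p under 0.05 (0.0173% of those tested), and all 3 rose: RHOB, CHAC1 and ATF3. The threshold stated in the study's methods (log2 fold change beyond 1 in size at an adjusted p under 0.5) was passed by 4 genes (0.023%), of which RHOB, CHAC1 and KLF2 were higher and PPP1R3G was lower, and by 6 genes with DESeq2, the tool of the study. DESeq2, run on the same genes, gave an adjusted p to 14686 genes and called 24 of them (0.163%), 11 higher and 13 lower. These 24 include the 3 genes called by edgeR, all are protein coding, and in each of them the 3 HBC530 libraries did not overlap the 3 DMSO libraries, as was the case for 7.25% of all genes on the higher and 6.67% on the lower side. Their log2 fold changes, taken from edgeR like all fold changes here, lay between 0.45 and 1.49 in size. They kept their sign in the 6 fits that left out 1 library, which was given in advance because the groups did not overlap. Without HBC530 replicate 3 DESeq2 called 35 genes, which include 22 of the 24 and leave out JDP2 and BMF. Across all genes tested the median log2 fold change was 0.01, and the 95% confidence interval lay within -1 and 1 for 15856 genes (91.2%). A log2 fold change beyond 1 in size was fitted for 33 genes, of which 29 had a mean below 50 counts.

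**Figure D2:**
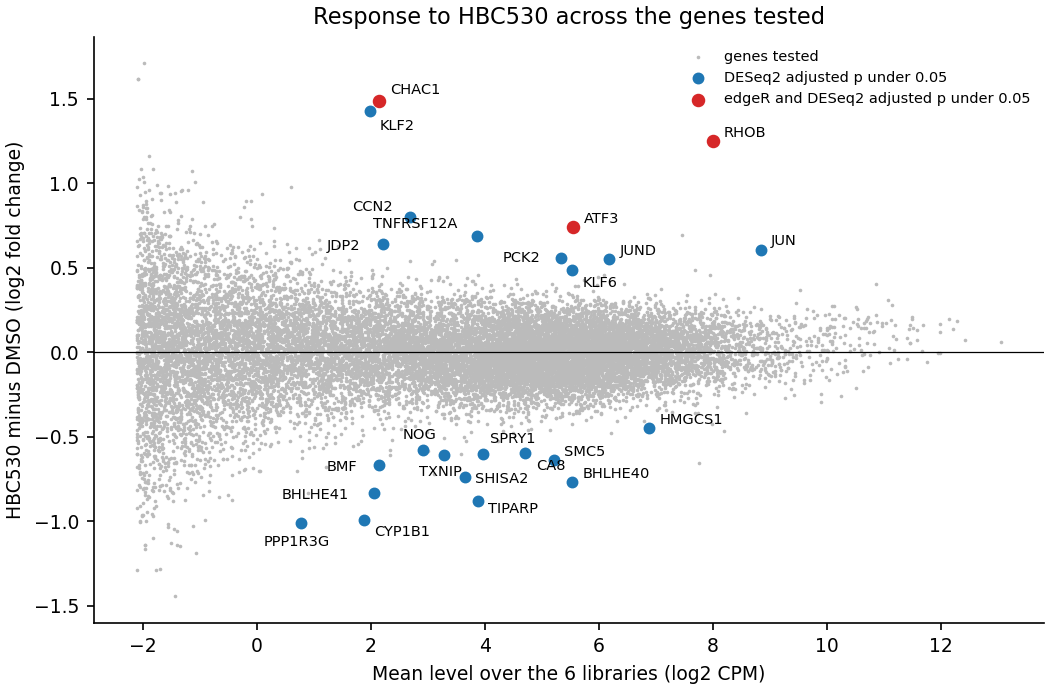
Log2 fold change of HBC530 against DMSO (vertical axis) and mean level over the 6 libraries in log2 CPM (horizontal axis) for the 17382 genes tested. The 3 genes called by edgeR and DESeq2 (red) lie above 0, and the genes called by DESeq2 but not by edgeR (blue) lie on both sides.

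To show which elements stand in front of some of the genes that rose, the 250 bases before the annotated start were read from RefSeq (GRCh38.p14). The genes shown are RHOB, CHAC1, ATF3, JUN and CCN2. Capitals mark CCAAT in RHOB and CHAC1, TGATGNAA (the core of the element bound by ATF4 and C/EBP factors) in CHAC1 and ATF3, CCAAT and TGACNTCA (a site related to the cAMP response element) in JUN, TGACNTCA in ATF3, and GGAATG (the core bound by TEAD factors) in CCN2, each searched on both strands. RHOB lies on chr2:20446824-20447073 (plus strand), CHAC1 on chr15:40953221-40953470 (plus), ATF3 on chr1:212565157-212565406 (plus, the first of 2 windows), JUN on chr1:58784048-58784297 (minus) and CCN2 on chr6:131951373-131951622 (minus). In the annotation used for the counts CHAC1, ATF3 and JUN also have a start upstream of the RefSeq start used here. The whole windows of CHAC1 and JUN and part of that of ATF3 thus lie within the gene and can be transcribed.

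RHOB: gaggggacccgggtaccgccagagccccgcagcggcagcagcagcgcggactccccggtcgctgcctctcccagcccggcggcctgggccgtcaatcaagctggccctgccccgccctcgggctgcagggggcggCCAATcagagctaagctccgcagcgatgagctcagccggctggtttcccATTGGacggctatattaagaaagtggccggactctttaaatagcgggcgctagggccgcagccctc
CHAC1: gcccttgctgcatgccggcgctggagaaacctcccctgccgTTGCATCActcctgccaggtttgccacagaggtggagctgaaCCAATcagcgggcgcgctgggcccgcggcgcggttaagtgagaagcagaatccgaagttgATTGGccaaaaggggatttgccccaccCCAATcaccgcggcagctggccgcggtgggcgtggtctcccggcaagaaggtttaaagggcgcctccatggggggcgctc
ATF3: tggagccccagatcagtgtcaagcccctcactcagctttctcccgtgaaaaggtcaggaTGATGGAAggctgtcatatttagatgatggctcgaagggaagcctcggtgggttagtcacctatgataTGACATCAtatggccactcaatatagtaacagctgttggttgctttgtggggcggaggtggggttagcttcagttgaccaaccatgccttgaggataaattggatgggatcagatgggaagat
JUN: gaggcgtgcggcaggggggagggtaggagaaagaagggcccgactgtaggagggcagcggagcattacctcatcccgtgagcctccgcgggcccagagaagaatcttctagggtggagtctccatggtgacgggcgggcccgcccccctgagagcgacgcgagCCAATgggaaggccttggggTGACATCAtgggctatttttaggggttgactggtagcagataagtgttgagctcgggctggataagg
CCN2: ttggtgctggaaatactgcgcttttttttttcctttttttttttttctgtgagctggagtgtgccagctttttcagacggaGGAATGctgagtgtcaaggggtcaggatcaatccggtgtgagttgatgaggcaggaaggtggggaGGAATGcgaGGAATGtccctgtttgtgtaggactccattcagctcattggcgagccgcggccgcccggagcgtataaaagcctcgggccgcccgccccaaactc

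The window of RHOB held CCAAT at 115 and, on the other strand, at 66 bases before the start. That of CHAC1 held 3 CCAAT boxes and 1 TGATGNAA, and the first window of ATF3 held 1 TGATGNAA and 1 TGACNTCA. JUN carried 1 TGACNTCA at 67 bases before the start, and CCN2 carried GGAATG 3 times. ATF3 and CCN2 also held 1 CCAAT each on the other strand, which is left in lower case above. KLF2, which had a smaller p than CCN2, is not shown. Its window held 0 sites of CCAAT, TGATGNAA, TGACNTCA or GGAATG. As a background, CCAAT stood in 34.6% of the 35116 windows of the table (300 bases each), TGATGNAA in 3.62%, TGACNTCA in 7.72% and GGAATG in 14.0%. Of the 24 genes called by DESeq2, 20 had a window. CCAAT was present in 12 of them (8 of 10 higher and 4 of 10 lower genes, and 39.7% of all genes), TGACNTCA in 5 (9.21% of all genes), GGAATG in 4 (16.7%) and TGATGNAA in 3 (4.46%). GCGTG, the core of the element bound by the aryl hydrocarbon receptor, was present in 11 (40.6% of all genes), CACGTG, the E-box bound by BHLHE40, in 3 (8.78%) and TGANTCA, the AP-1 site, in 0 (9.37%). These matches describe letters in the windows and no binding was measured.

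RHOB had the smallest p of all genes. Its level was 141, 158 and 154 CPM (counts scaled to the library size) in DMSO replicates 1 to 3 and 360.04, 375 and 345 CPM in HBC530 replicates 1 to 3. The lowest HBC530 library thus lay at more than double the mean of the DMSO libraries (151 ± 8.88 CPM, SD, n = 3). RHOB (ENSG00000143878, chromosome 2, 20447074 to 20449445, plus strand, a gene without exonic overlap with another gene) rose by a log2 fold change of 1.25 (SE 0.085, edgeR adjusted p = 0.000504), and it was called in all 6 fits that left out 1 library. RHOA, the main regulator of stress fibres, was level at a log2 fold change of 0.00 (95% confidence interval -0.17 to 0.18), and RHOC had 0.21 (-0.09 to 0.50), or 0.02 without HBC530 replicate 3. Per length, RHOB stood at a mean of 219.5 TPM (counts scaled to exonic length and library size) with DMSO and 502 TPM with HBC530, and RHOA at 1099 and 1055 TPM. Enzymes of prenylation, which attach the lipid anchor of small GTPases, gave 0 calls by edgeR or DESeq2 among 12 genes tested. Their median was 0.02 (-0.01 without HBC530 replicate 3), and that over all genes was 0.01. An unadjusted p under 0.05 was reached by 0 of them, where 2.69% of all genes reached it on the higher and 2.4% on the lower side.

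CHAC1 had the largest change among the genes called. It held 2.28, 2.38 and 2.35 CPM with DMSO and 6.87, 6.27 and 6.54 CPM with HBC530, from 105 to 147 and from 216 to 364 raw counts. The HBC530 libraries lay far above the DMSO libraries, with a spread of at most 0.301 CPM (SD, n = 3) in either group. CHAC1 (ENSG00000128965, chromosome 15, 40952962 to 40956519, plus strand) rose by a log2 fold change of 1.49 (SE 0.112, edgeR adjusted p = 0.000668), in all 6 fits that left out 1 library as well. ATF3 (ENSG00000162772, chromosome 1, 212565334 to 212620777, plus strand), a bZIP repressor induced by many kinds of stimulus, held 36.5, 35.5 and 33.1 CPM with DMSO and 58.9, 55.4 and 61.3 CPM with HBC530. Its groups did not overlap and its log2 fold change was 0.74 (SE 0.0883, edgeR adjusted p = 0.0374). When 1 library was left out, this call was lost in 5 of 6 fits (adjusted p from 0.0576 to 0.326, edgeR), and it remained without HBC530 replicate 3. Among 19 regulators and sensors around ATF4, 14 were higher and 5 lower, with a median of 0.26 (0.24 without HBC530 replicate 3). An unadjusted p under 0.05 was reached by 10 on the higher and 1 on the lower side, where 2.69% and 2.4% of all genes reached it. The gene lists were chosen with earlier results of these data known, so such counts partly carry that choice. JDP2, a bZIP repressor of the AP-1 family, had a log2 fold change of 0.64 and was called by DESeq2 (adjusted p = 0.0299, and 0.170 without HBC530 replicate 3) but not by edgeR (adjusted p = 0.585). ATF4 itself had 0.37 (95% confidence interval 0.13 to 0.61) and SESN2, a sensor that restrains mTORC1, had 0.30, without passing either test on all 6 libraries. Without HBC530 replicate 3, SESN2 passed DESeq2 (adjusted p = 0.00675). DDIT4, another inhibitor of mTORC1, was the member on the other side with -0.32 (SE 0.112, edgeR adjusted p = 0.748). Its libraries held 84.3, 80.3 and 78.7 CPM with DMSO and 56.9, 61.4 and 76.2 CPM with HBC530, and without HBC530 replicate 3 its value was -0.45 and DESeq2 called it (adjusted p = 7.11e-05).

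Enzymes of amino acid synthesis had small differences. Of 17 tested, 14 were higher and 3 lower (median 0.15, and 0.10 without HBC530 replicate 3), and 0 passed edgeR's or DESeq2's test on all 6 libraries. An unadjusted p under 0.05 was reached by 3, all on the higher side, where 2.69% of all genes reached it. ASNS, the asparagine synthetase, had the smallest p with a log2 fold change of 0.49 (SE 0.127, edgeR adjusted p = 0.748), and PHGDH, the first enzyme of serine synthesis, had 0.29. HBC530 replicate 3 was the highest library for ASNS with 295 CPM, where the other HBC530 libraries held 211 and 217 CPM and the DMSO libraries between 165 and 183 CPM. Without that library the log2 fold change of ASNS was 0.32, and DESeq2 called it (adjusted p = 0.0344). PCK2, the mitochondrial phosphoenolpyruvate carboxykinase, was higher by 0.56 (SE 0.129) and passed DESeq2 (adjusted p = 0.0494) but not edgeR (adjusted p = 0.748). Of 14 amino acid transporters, SLC7A11, the cystine carrier, had the smallest p (0.54, SE 0.130, edgeR adjusted p = 0.748), and the list had a median of 0.07 (0.11 without HBC530 replicate 3). SLC7A11 did not pass DESeq2 with all 6 libraries (adjusted p = 0.0995) and passed without HBC530 replicate 3 (adjusted p = 0.000117). Aminoacyl-tRNA synthetases had a median of 0.03 over 20 genes (0.06 without HBC530 replicate 3), with 11 higher and 9 lower. In 7 of them the HBC530 libraries lay above all DMSO libraries and in 0 below, where 7.25% and 6.67% of all genes did so.

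Beyond this set, the higher genes included factors of the Kruppel-like, AP-1 and YAP-TEAD groups. KLF2, a factor known from endothelium under flow, held 1.33, 2.53 and 2.49 CPM with DMSO and 5.26, 6.07 and 6.03 CPM with HBC530. DMSO replicate 1 was the lowest of the libraries, and the groups did not overlap. The log2 fold change of KLF2 was 1.43 (SE 0.202), with an adjusted p of 0.0851 by edgeR and 2.7e-08 by DESeq2. KLF6, a widely expressed relative, had 40.1, 38.0 and 37.4 CPM with DMSO and 49.2, 53.4 and 59.3 CPM with HBC530, a log2 fold change of 0.49 that was called by DESeq2 (adjusted p = 0.00581) and not by edgeR (adjusted p = 0.513). KLF7 also lay higher (0.45), with an unadjusted p under 0.05. The family as a whole showed no common direction, with 6 of 15 members higher and a median of -0.13 (0.09 without HBC530 replicate 3). KLF9, which responds to glucocorticoids, was on the lower side with -0.31 (-0.18 without HBC530 replicate 3, SE 0.132, edgeR adjusted p = 0.748), and KLF4 had 0.05.

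Among AP-1 and immediate early genes, JUN and JUND were the genes called by DESeq2. JUN had 366, 367 and 354 CPM with DMSO and 543, 581 and 532 CPM with HBC530, so that the lowest HBC530 library lay well above the highest DMSO library. Its log2 fold change was 0.61 (SE 0.0798), with an adjusted p of 0.053 by edgeR and 2.7e-08 by DESeq2. JUND, a constitutively expressed partner, had 48.8, 63.6 and 63.9 CPM with DMSO and 79.5, 87.4 and 91.3 CPM with HBC530 (log2 fold change 0.55, adjusted p = 0.627 by edgeR and 0.0177 by DESeq2). FOSL1, a late partner of JUN, had 0.61 at a mean of 0.684 CPM with DMSO and did not pass either test. FOS (-0.25, 95% confidence interval -0.74 to 0.23), EGR1 (-0.26, -0.63 to 0.12, and -0.11 without HBC530 replicate 3) and JUNB (0.02) did not pass. Of the 24 genes in this list, 12 were higher and 12 lower, with a median of 0.00. Among 18 genes of MAPK feedback, SPRY1, an inhibitor of receptor tyrosine kinase signalling, was lower by -0.60 (SE 0.0916, adjusted p = 0.107 by edgeR and 3.36e-05 by DESeq2). Its libraries held 19.5, 18.7 and 18.4 CPM with DMSO and 12.5, 13.0 and 11.8 CPM with HBC530, with a narrow spread in both groups. DUSP1, a phosphatase that switches off JNK and p38, had 0.35 (SE 0.0849, edgeR adjusted p = 0.748, and DESeq2 adjusted p = 0.0467 without HBC530 replicate 3), SPRY2 had 0.02, and the median of the list was 0.05. DUSP8, a further member, was called as higher by DESeq2 only without HBC530 replicate 3 (adjusted p = 0.0102).

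CCN2 led the YAP-TEAD targets. It held 5.32, 4.86 and 4.05 CPM with DMSO and 7.81, 8.67 and 8.18 CPM with HBC530, and the groups were well apart. The log2 fold change was 0.80 (SE 0.124), with an adjusted p of 0.113 by edgeR and 6.38e-05 by DESeq2. CCN1 (0.42), AMOTL2 (0.40) and ANKRD1 (1.61, at a mean of 0.0993 CPM with DMSO), which are textbook targets of the same pathway, also had an unadjusted p under 0.05 on the higher side (2.69% of all genes). AMOTL2 passed DESeq2 without HBC530 replicate 3 (0.48, adjusted p = 0.0013). WWTR1, the gene of the coactivator TAZ, and DLC1 were on the lower side with -0.26 and -0.29, and without that library these values were -0.17 and -0.16. The list of 20 genes was split into 10 higher and 10 lower, with a median of -0.07 (-0.01 without HBC530 replicate 3), so it had no common direction. TNFRSF12A, the receptor of TWEAK, was higher by 0.69 (SE 0.144, adjusted p = 0.627 by edgeR and 0.00885 by DESeq2), and HBC530 replicate 3 was its highest library with 22.6 CPM against 15.5 and 15.8 CPM in the other HBC530 libraries (log2 fold change 0.50 without it). Of 27 actin and SRF target genes, 18 were higher and 9 lower (median 0.10, and 0.09 without HBC530 replicate 3). In 8 of them the HBC530 libraries lay above all DMSO libraries and in 0 below, where 7.25% and 6.67% of all genes did so. TPM1, a tropomyosin, had the smallest p among them with 0.25 (SE 0.0929, edgeR adjusted p = 0.748), and ACTB and ACTG1, the cytoplasmic actins, had 0.12 and 0.14. Of 17 tubulins, 15 were higher and 2 lower with a median of 0.05, also without HBC530 replicate 3. None was called by edgeR or DESeq2 or had an unadjusted p under 0.05, which 2.69% of all genes had on the higher and 2.4% on the lower side. In 4 tubulins the HBC530 libraries lay above all DMSO libraries and in 0 below, where 7.25% and 6.67% of all genes did so.

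**Figure D3:**
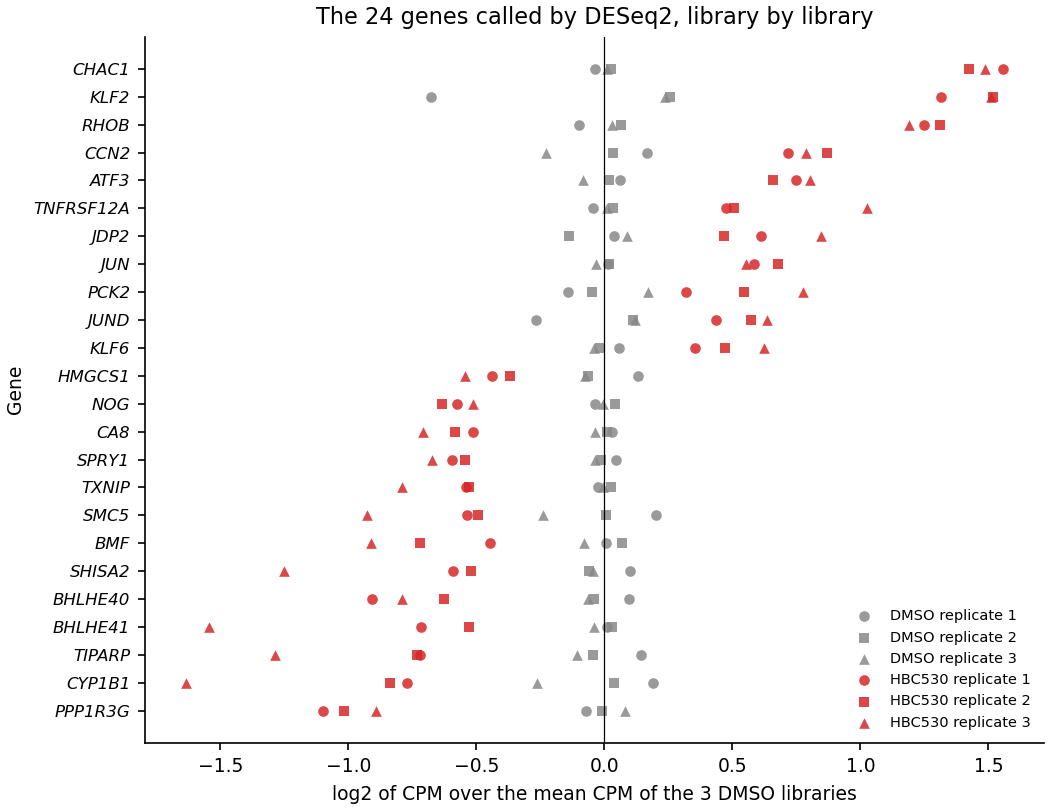
The 24 genes called by DESeq2 (vertical axis), each library plotted as the log2 of its CPM over the mean CPM of the 3 DMSO libraries (horizontal axis), DMSO in grey and HBC530 in red, with a marker shape for each replicate number. In every gene the HBC530 points lie on one side of the DMSO points. HBC530 replicate 3 (red triangle) is the HBC530 library furthest from DMSO where it is lowest for CYP1B1, BHLHE41, TIPARP, SHISA2, SMC5, TXNIP, BMF, CA8, HMGCS1 and SPRY1. The same holds where it is highest for ATF3, KLF6, JDP2, TNFRSF12A, JUND and PCK2. It is the HBC530 library nearest to DMSO for RHOB and JUN, where it is lowest, and for NOG and PPP1R3G, where it is highest.

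Repressors of the circadian clock were among the lower genes. BHLHE40 held 62.3, 56.6 and 55.7 CPM with DMSO and 31.0, 37.7 and 33.7 CPM with HBC530. The HBC530 libraries were thus all far below the DMSO libraries, and the log2 fold change was -0.77 (SE 0.1001) with an adjusted p of 0.053 by edgeR and 2.7e-08 by DESeq2. BHLHE41, its close relative, had 5.26, 5.32 and 5.07 CPM with DMSO and 3.17, 3.62 and 1.79 CPM with HBC530. Its log2 fold change was -0.83 (-0.61 without HBC530 replicate 3), called by DESeq2 (adjusted p = 0.0346) and not by edgeR (adjusted p = 0.748). BHLHE41 shares exonic sequence with SSPN (mean of 99.2 counts), so part of its counts can come from that gene. RORA, which activates clock genes, was lower by -0.50 with an unadjusted p under 0.05. The core clock genes CLOCK (-0.14, and -0.06 without HBC530 replicate 3), BMAL1 (-0.08), PER1 (-0.07) and CRY1 (-0.10, and -0.06) did not pass, and the list of 22 genes had a median of -0.08.

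TIPARP and CYP1B1 stood out among the genes of the aryl hydrocarbon receptor. TIPARP, a mono-ADP-ribosyltransferase that limits this receptor, held 20.9, 18.4 and 17.6 CPM with DMSO and 11.5, 11.4 and 7.79 CPM with HBC530. Replicate 3 was the lowest HBC530 library, but the groups did not overlap without it either, and the log2 fold change was -0.88 (-0.72 without it), with an adjusted p of 0.198 by edgeR and 4.77e-05 by DESeq2. CYP1B1, an oxidase of steroids and aromatic hydrocarbons, had 5.47, 4.92 and 3.998 CPM with DMSO and 2.81, 2.69 and 1.55 CPM with HBC530, a log2 fold change of -0.99 (-0.79 without HBC530 replicate 3; adjusted p = 0.585 by edgeR and 0.00283 by DESeq2). CYP1B1 shares exonic sequence with RMDN2 (mean of 98.2 counts) and CYP1B1-AS1 (23.2), so its counts are uncertain. CYP1A1, the classical target, had a mean of 0.750 CPM with DMSO and 0.407 CPM with HBC530 and a log2 fold change of -0.86 with an unadjusted p under 0.05. AHRR (-0.18, and -0.12 without HBC530 replicate 3) and NQO1 (-0.01) did not pass, and AHR, the receptor itself, had 0.21 (95% confidence interval -0.05 to 0.47). Of 11 genes tested, 3 were higher and 8 lower, with a median of -0.16 (-0.05 without HBC530 replicate 3). In 3 of the 11 the HBC530 libraries lay above all DMSO libraries and in 5 below, where 7.25% and 6.67% of all genes did so.

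Targets of the hypoxia-inducible factors were lower in all 18 genes tested, by small amounts. Their median was -0.28 (-0.23 without HBC530 replicate 3) and 0 passed edgeR's or DESeq2's test on all 6 libraries. An unadjusted p under 0.05 was reached by 13 (2.4% of all genes on the lower side), and 14 had HBC530 libraries below all DMSO libraries (6.67% of all genes). The members were chosen with earlier results of these data known, so these counts partly carry that choice. BNIP3L, a receptor of mitophagy, had the smallest p, with 31.0, 27.1 and 27.9 CPM under DMSO and 22.5, 23.1 and 21.7 CPM under HBC530 and a log2 fold change of -0.35 (SE 0.0928, edgeR adjusted p = 0.748). ANKRD37 (-0.57), HILPDA (-0.41), KDM3A (-0.38), ADM (-0.36) and PFKFB3 (-0.34) were of the same order, and VEGFA had -0.16 (-0.10 without HBC530 replicate 3). Without that library DESeq2 called HILPDA (-0.48, adjusted p = 0.00397) and ADM (-0.45, adjusted p = 0.046). The exons of ANKRD37 overlap those of UFSP2 and the exons of BNIP3L those of PNMA2, so these counts are uncertain. Glycolysis genes divided. The glucose carriers SLC2A1 (-0.38) and SLC2A3 (-0.52), the kinases PDK1 (-0.41) and HK2 (-0.31, and -0.16 without HBC530 replicate 3) and LDHA (-0.21) had an unadjusted p under 0.05, whereas GAPDH (0.05), PKM (-0.04) and PGK1 (-0.10) did not. SLC2A1 had the smallest p of this list, with 98.0, 99.8 and 99.9 CPM with DMSO and 78.1, 80.5 and 69.3 CPM with HBC530 (SE 0.0868, edgeR adjusted p = 0.748, and DESeq2 adjusted p = 0.0154 without HBC530 replicate 3). The list of 22 genes had a median of -0.02. TXNIP, an arrestin that restrains glucose uptake and is induced by MondoA, was lower by -0.61 (SE 0.105, adjusted p = 0.213 by edgeR and 0.00131 by DESeq2). Its libraries held 11.5, 11.9 and 11.6 CPM with DMSO and 8.03, 8.10 and 6.76 CPM with HBC530. ARRDC4, a second target of MondoA, had -0.47, and the remaining 7 genes of that list had an unadjusted p above 0.05. PPP1R3G, a subunit that directs protein phosphatase 1 to glycogen, was the only one of 23 genes of glycogen metabolism with an unadjusted p under 0.05. Over all genes 2.4% had it on the lower and 2.69% on the higher side. It had 2.09, 2.18 and 2.32 CPM with DMSO and 1.03, 1.09 and 1.18 CPM with HBC530, which gave a log2 fold change of -1.01 (SE 0.147, edgeR adjusted p = 0.0917, DESeq2 adjusted p = 0.00186), at 39 to 145 raw counts per library.

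Genes of sterol synthesis tended to the lower side. HMGCS1, which makes the precursor of mevalonate, held 149, 130.3 and 129 CPM with DMSO and 100.5, 105 and 93.6 CPM with HBC530, and its groups did not overlap. The log2 fold change was -0.45 (SE 0.0923), with an adjusted p of 0.585 by edgeR and 0.0182 by DESeq2. SQLE (-0.30), INSIG1 (-0.29), SC5D (-0.27) and STARD4 (-0.38) had an unadjusted p under 0.05 on the same side, and PMVK had it on the other (0.32, and 0.16 without HBC530 replicate 3). Over all genes 2.4% had it on the lower and 2.69% on the higher side. Of 23 genes, 4 were higher and 19 lower, with a median of -0.16 (-0.13 without HBC530 replicate 3). Of 16 genes of fatty acid synthesis, 14 were lower with a median of -0.13, which was -0.05 without HBC530 replicate 3, and SCD, the stearoyl-CoA desaturase, had the smallest p (-0.26, and -0.15 without that library, SE 0.1097, edgeR adjusted p = 0.748).

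**Figure D4:**
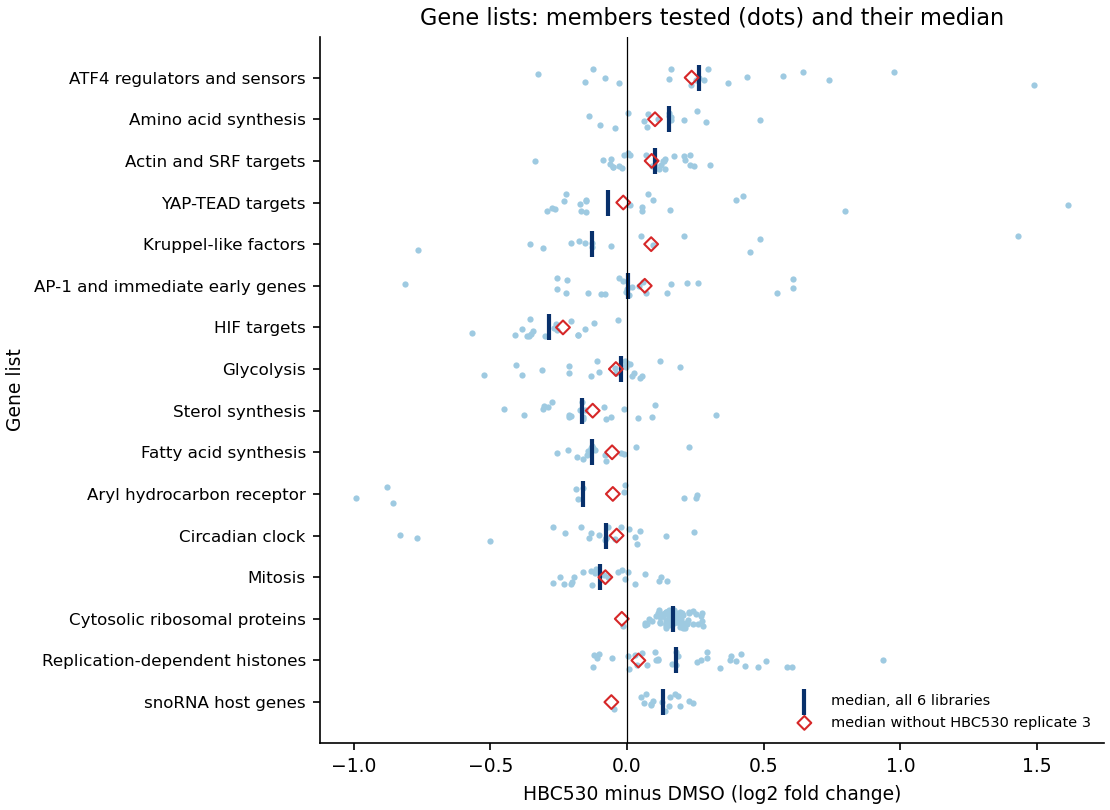
Log2 fold changes of HBC530 against DMSO (horizontal axis) for the tested members (dots) of 16 gene lists (vertical axis), with the median over all 6 libraries (dark bar) and without HBC530 replicate 3 (red diamond). The medians of ribosomal protein, histone and snoRNA host genes are near 0 without that library, whereas those of the ATF4 and HIF lists remain at 0.24 and -0.23.

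Further lower genes called by DESeq2 belong to none of these groups. NOG encodes noggin, a secreted antagonist of BMP, and held 8.78, 9.27 and 8.96 CPM with DMSO and 6.04, 5.79 and 6.30 CPM with HBC530 (log2 fold change -0.58, adjusted p = 0.212 by edgeR and 0.0025 by DESeq2). CA8, a carbonic anhydrase-related protein that binds the IP3 receptor, had 32.0, 31.6 and 30.6 CPM with DMSO and 21.99, 21.0 and 19.2 CPM with HBC530 (-0.60, adjusted p = 0.107 and 1.59e-05). BMF, a BH3-only protein of apoptosis, had 5.39, 5.62 and 5.07 CPM with DMSO and 3.93, 3.26 and 2.85 CPM with HBC530 (-0.67, adjusted p = 0.585 and 0.0212). The groups of these genes did not overlap, and the HBC530 libraries were further apart for BMF than for NOG and CA8. BMF was not called by DESeq2 without HBC530 replicate 3 (-0.57, adjusted p = 0.0961). SMC5, a subunit of the SMC5/6 complex of DNA repair, had 51.6, 45.1 and 37.9 CPM with DMSO and 30.9, 31.8 and 23.6 CPM with HBC530 (-0.64, adjusted p = 0.748 and 0.0207). Replicate 3 was the lowest library of each group for SMC5. SHISA2, which retains Wnt and FGF receptors in the endoplasmic reticulum, had 16.7, 14.9 and 15.1 CPM with DMSO and 10.3, 10.8 and 6.54 CPM with HBC530 (-0.74, and -0.55 without HBC530 replicate 3, adjusted p = 0.748 and 0.0154). Targets of TGF-beta and BMP signalling had a median of -0.11 over 19 genes (-0.07 without HBC530 replicate 3), with SMAD6 (-0.24) and INHBA (0.89, at a mean of 0.359 CPM with DMSO) at the smallest p on either side.

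Among further signalling and stress lists, CYP1B1 was the only gene called by either tool with all 6 libraries. Wnt targets had a median of -0.14 (0.02 without HBC530 replicate 3), with TBX3 (-0.36) and NKD2 (0.30) at the smallest p. Notch targets had a median of -0.08 (0.01 without that library), with DLL3 at 0.43 and 0.22. Targets of NF-kappaB and interferon had 0.10 over 13 genes (0.05 without that library), where RELB had 0.42 (0.28), and targets of cAMP and CREB had -0.07 over 17 genes (0.05 without it). Targets of p53 had a median of -0.02 over 19 genes (0.02 without HBC530 replicate 3), with GADD45A at 0.26 (0.17 without that library), and NRF2 targets had a median of 0.01 over 19. Metallothioneins and zinc genes had -0.02 over 7 genes, with MT2A at 0.25, and genes of lysosome and autophagy had 0.03 over 25. Among cytosolic chaperones, HSPA1A (0.43, SE 0.0968, edgeR adjusted p = 0.748) and HSPA1B (0.41), whose transcripts are nearly identical so that reads can be split between them, had an unadjusted p under 0.05, and the median of 18 genes was -0.04. HSPA1A passed DESeq2 without HBC530 replicate 3 (adjusted p = 0.034). Chaperones of the endoplasmic reticulum had a median of 0.02 over 20 genes (XBP1 0.24). Drug transporters and metabolism genes had -0.05 over 17 genes (0.02 without HBC530 replicate 3), with CYP1B1 as the gene called by DESeq2.

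Genes of proliferation had medians slightly below 0. Of 22 mitosis genes, 16 were lower with a median of -0.10 (-0.08 without HBC530 replicate 3). KIF20A (-0.23), TTK (-0.24) and MKI67 (-0.27, and -0.16 without that library) had an unadjusted p under 0.05 (2.4% of all genes on the lower side). Of 25 genes of DNA replication, 16 were lower with a median of -0.05, among them CCNE2, cyclin E2 (-0.41), and RRM2, a subunit of ribonucleotide reductase (-0.23). The exons of CCNE2 overlap those of INTS8, and the exons of KIF20A overlap those of BRD8 and CDC23, so that part of these counts can come from the other genes. The same holds for JUNB with HOOK2, AHRR with PDCD6 and CLOCK with TMEM165. SR splicing factors and CLK kinases had a median of -0.02 over 19 genes. Cytosolic ribosomal protein genes were higher in 84 of 85 cases with a median of 0.17, but this rested on 1 library, since the median was -0.02 without HBC530 replicate 3. Their share of all counts was 10.0, 9.69 and 9.90% with DMSO and 9.98, 9.74 and 12.9% with HBC530 (exact permutation p = 0.6, two-sided, smallest possible 0.1). Replication-dependent histone genes (median 0.18 over 34 genes), snoRNA host genes (0.13 over 16), the mitochondrial genome (0.11 over 13) and the proteasome (0.06 over 31) had medians above 0 with all libraries and 0.04, -0.06, -0.03 and -0.05 without HBC530 replicate 3. Transcripts of the mitochondrial genome made up 2.36 ± 0.446% of counts with DMSO and 2.49 ± 0.426% with HBC530 (SD, n = 3, exact permutation p = 0.7, two-sided). Replication-dependent histone genes made up 0.0362, 0.0359 and 0.0353% of counts with DMSO and 0.0339, 0.0334 and 0.0344% with HBC530, so that this share was lower in each HBC530 library although the median of the tested members was above 0 (exact permutation p = 0.1, two-sided, the smallest possible). H4C4 had the smallest p of the histone genes (0.94, SE 0.336, edgeR adjusted p = 0.748) at a mean of 0.213 CPM with DMSO.

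For the genes named with HBC530, MsOc3HBC at the same dose and time served as the matched comparison, as 1 pair of compounds. Since the genes were chosen on HBC530 libraries, which enter this comparison as well, the differences partly carry that choice. Over 17095 genes, 0 (0.0%) differed between the ligands at an adjusted p under 0.05 by edgeR, 1268 had an unadjusted p under 0.05, and DESeq2 called 65. The labels give replicate numbers only, and a pairing of these libraries was inferred from correlations in the same data. With the replicate as a block edgeR called 1932 genes (11.3%), and the blocked values hold only under that pairing. Replicate 3 of both ligands carried the trend with gene length given above, and without this pair the blocked fit called 3474 genes, among them 1856 of the 1932. RHOB had 256, 278 and 259 CPM with MsOc3HBC. It was lower there than with HBC530 by a log2 difference of -0.44 (95% confidence interval -0.64 to -0.25, adjusted p = 0.646, and 0.000293 with the replicate block, edgeR). KLF2 was likewise lower with MsOc3HBC (-0.59, -0.88 to -0.29, adjusted p = 0.646, and 0.00545 with the block), and HSPA1A differed by -0.76 (adjusted p = 0.227, and 0.000143 with the block). CHAC1 was higher with MsOc3HBC, at 13.7, 14.2 and 16.6 CPM, with a difference of 1.17 (0.91 to 1.43, adjusted p = 0.103, and 3.84e-05 with the block). JDP2 (0.97, adjusted p = 0.307, and 0.000143 with the block), SLC7A11 (1.04, 0.496 and 4.24e-05) and DDIT4 (0.56, 0.646 and 0.000293) differed in the same direction. SPRY1 was lower with MsOc3HBC by -0.39 (0.646, and 0.00753 with the block), BHLHE40 by -0.30 (0.646 and 0.0314) and JUND by -0.19 (0.684 and 0.0435), while SMC5 was higher by 0.61 (0.646 and 0.000164) and HMGCS1 by 0.20 (0.669 and 0.0168). Of the 24 genes called by DESeq2 with HBC530, 9 differed between the ligands at an adjusted p under 0.05 with the block (11 without replicate 3 of both ligands). For 11 the 95% interval of the difference held 0 with the block, and for 14 without it. Among the former, the blocked difference was -0.01 for CA8 (-0.17 to 0.15), -0.01 for TXNIP (-0.21 to 0.18), -0.02 for KLF6 (-0.13 to 0.09) and 0.10 for ATF3 (-0.02 to 0.21), so that differences up to these bounds were not resolved. Against the same DMSO libraries, which both comparisons share, RHOB had 1.25 with HBC530 and 0.80 with MsOc3HBC, CHAC1 had 1.49 and 2.66, and SMC5 had -0.64 and -0.03.

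**Figure D5:**
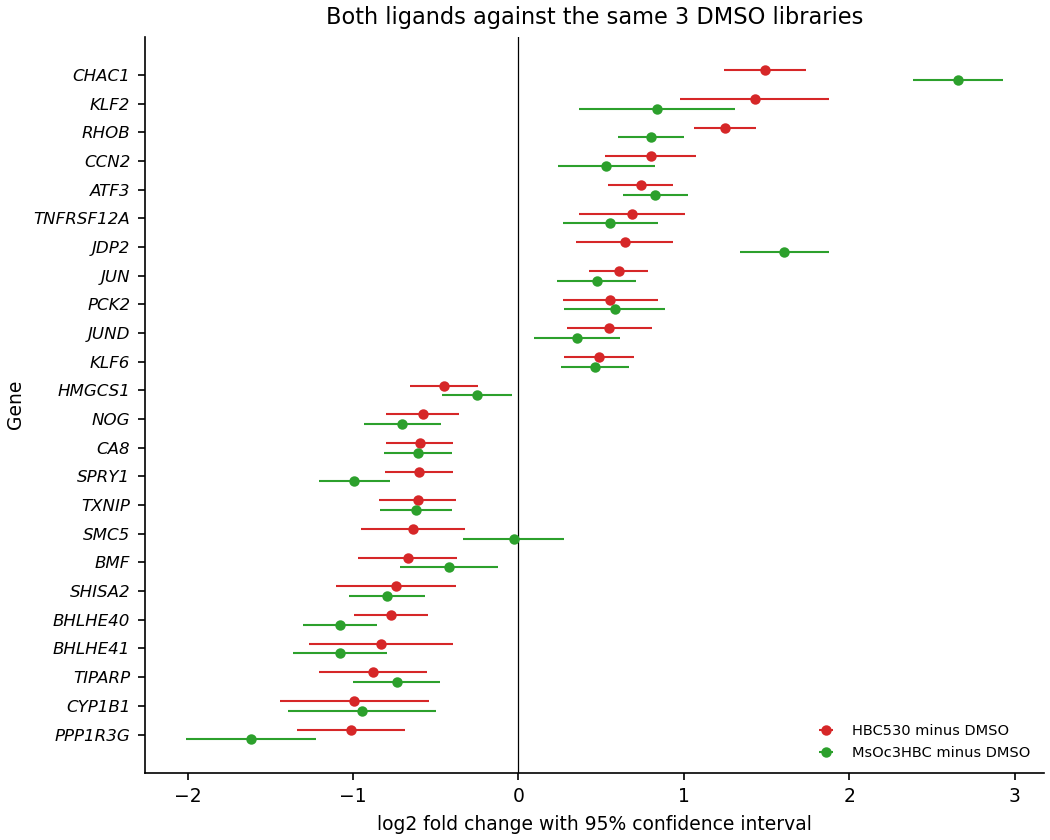
Log2 fold changes with 95% confidence intervals (horizontal axis) of HBC530 (red) and MsOc3HBC (green), each against the same 3 DMSO libraries, for the 24 genes called by DESeq2 with HBC530 (vertical axis). CHAC1 and JDP2 lie further from 0 with MsOc3HBC, RHOB and KLF2 lie closer, and SMC5 lies at -0.03 with MsOc3HBC.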

How the data were processed

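For each treatment, 3 biological replicates of HEK293T cells were sequenced in paired-end mode after poly(A) selection. Per the submitters' processing notes, the authors used Trimmomatic 0.36 for trimming and STAR 2.5.2b for alignment to GRCh38 and counted unique gene hits with featureCounts of Subread 1.5.2, and the deposited files hold these raw counts. The annotation release and the strand setting are not given in the sources used here. The 2 deposited tables of differential expression hold the authors' own fold changes, p-values and normalized counts and were not used. Counts of genes with a mean raw count over 10 were scaled with TMM factors and tested in R 4.3.3 with edgeR 4.0.16 (glmQLFit and glmQLFTest, 3 libraries against 3, Benjamini-Hochberg adjustment over all genes tested). DESeq2 1.42.0, the tool of the study, was run on the same genes. CPM use the TMM library sizes and TPM the exonic length deposited with the counts. P-values of edgeR and DESeq2 set the difference of the groups against the spread between these replicates, which is estimated with help from all genes tested. Shares of counts were compared by exact permutation. Genes were named if called by edgeR or DESeq2, past the threshold of the methods, among the 10 higher or 10 lower genes of smallest p with a mean of at least 50 counts, or of the smallest unadjusted p under 0.05 per direction in a list, and lists also name central members. The members and the 43 lists were chosen with earlier results of these data known. For MsOc3HBC against HBC530 the deviations of same-numbered libraries from their group means correlated by 0.202, 0.446 and 0.497, all over 0.1, so blocked values are given. Alternatives were limma-voom (limma 3.58.1), DESeq2, other scalings and filters, all 9 libraries in 1 fit, the replicate block and each library left out. DESeq2 without HBC530 replicate 3, and the blocked fit of the ligands without replicate 3 of both, were added after seeing the data. The fits were tested on simulated data. Some members and lists are not reported here.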

Additional observations from a re-analysis of the deposited data

How the results depend on the processing

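For HBC530 against DMSO, the 3 genes with an adjusted p under 0.05 (edgeR) became 5 with all 9 libraries in 1 fit, 5 with limma-voom, 5 with upper-quartile scaling, 24 with DESeq2, 35 with DESeq2 without HBC530 replicate 3 (22 of them among the 24) and 52 without a filter on low counts, and ranged from 2 to 6 when 1 library was left out, with 6 without HBC530 replicate 3. RHOB and CHAC1 were called in all of these settings. The 4 genes at the threshold of the methods became 6 with DESeq2 and 42 without a filter, and 3 to 7 with 1 library left out (7 without HBC530 replicate 2). No pairing by replicate number was assumed here. Same-numbered libraries correlated by 0.0988, 0.0185 and 0.196, and 4 of 6 libraries correlated best with their own number (5 of 6 for the ligands). The replicate block gave 16 genes at an adjusted p under 0.05 and 40 at the threshold of the methods. The 48 named genes kept their sign in every setting. They were chosen on these same libraries and the groups did not overlap for most of them, so this was largely given in advance. For MsOc3HBC against HBC530, the 0 genes at an adjusted p under 0.05 became 4 with all 9 libraries, 12 without a filter, 65 with DESeq2, 1932 with the replicate block and 3474 with the block without replicate 3 of both ligands, and remained 0 in each fit that left out 1 library. The 2 genes at the threshold of the methods became 1 with RLE scaling, 1 with at least 10 counts in every library, 5 with all 9 libraries, 10 without a filter, 50 with the replicate block and 140 with the block without replicate 3 of both ligands, and ranged from 0 to 80 with 1 library left out: 80 without MsOc3HBC replicate 3, 1 without its replicate 2 and 0 without its replicate 1 or HBC530 replicate 1 or 2. The cause of these differences was not tested. Of the 33 genes with a log2 fold change beyond 1 in size, 29 had a mean below 50 counts, and an effect of depth was not tested.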
